A study of Mus musculus with 12 samples.

Results

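The genes described here are 10 genes of epithelial cells, listed as genes that are silent in fibroblasts: *Cdh1*, *Epcam*, *Krt7*, *Krt8*, *Krt18*, *Krt19*, *Esrp1*, *Esrp2*, *Grhl2* and *Ovol1*. The list names them by their known role, and the rule uses no measured value. The genes were nevertheless chosen with earlier results of these data known. Their methylation was read at the cytosines that at least 10 of 12 RRBS libraries listed, in a promoter window (1500 bp before the transcription start site, TSS, to 500 bp after it) and in the gene body (the rest of the gene beyond that window). Of 1201548 autosomal cytosines listed that often, 291 lay in the promoters and 436 in the gene bodies of these genes. All 10 gene bodies could be tested among 18731, but only 8 promoters among 15737. The promoter of *Epcam* had 4 listed cytosines and that of *Krt8* had 2, each listed in at most 1 library, so neither has a value here. RNA of these cells was not analysed here, so the silence of the genes, and the fibroblast identity of the cells, could not be checked from methylation alone.

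The study asked what loss of SDHC, a subunit of succinate dehydrogenase, does to fibroblasts over time, and RRBS addressed DNA methylation. Both iMEF (immortalized mouse embryonic fibroblast) lines carried R26M2rtTA/+ and TetOcre, a doxycycline-driven Cre. The experimental line was *Sdhc* fl/fl, in which Cre removes exon 4 of both *Sdhc* alleles. The control line was *Sdhc* fl/wt, which keeps 1 wild-type allele. Doxycycline at 1 µg/mL was given to both lines. A sample taken before it is called day 0, and later samples followed after 5, 9, 12, 16 and 20 days, with a single library for a line on a given day. Genotype and line identity cannot be told apart in this design, and every SD and p-value below measures the spread between time points of 1 line, not between independent cultures. The 5 experimental libraries taken after doxycycline (days 5 to 20, the experimental series) were set against all 6 control libraries (the control series). In bulk DNA, more methylated cells and more methylated alleles per cell cannot be told apart.

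The libraries listed between 932307 cytosines (control day 12) and 1716381 (control day 5). Read depth is unknown, and neighbouring cytosines can share reads, so they are not independent measurements. In the control day 12 library 185 of the 291 promoter cytosines and 323 of the 436 gene-body cytosines of these genes were listed, against at least 247 and 406 in every other library, so its region means rest on fewer positions. These genes held 79 pairs of neighbouring cytosines on opposite strands of a CpG, of which 46 (control day 12) to 79 had both values in a library. Their mean absolute difference in beta was between 0.149 (experimental day 0) and 0.272 (experimental day 20). Over all such autosomal pairs it was between 0.0827 (control day 20) and 0.142 (control day 12), without matching for methylation level.

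In epithelia, *Cdh1* and *Epcam* encode adhesion molecules that hold neighbouring cells together, and the keratins form the intermediate filaments of simple epithelia as pairs of a type II and a type I protein. Esrp1 and Esrp2 direct the epithelial pattern of splicing, while the transcription factors Grhl2 and Ovol1 keep epithelial genes on and oppose the mesenchymal programme. In mesenchymal cells Zeb, Snai and Twist factors repress many of these genes, and methylation of CpG-rich promoters is known to accompany stable silencing. RRBS reads fragments rich in CpG, bisulfite turns unmethylated cytosines into uracil, and the share of reads that still show C at a position is its beta value, from 0 (no read methylated) to 1 (every read methylated).

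Promoter sequence from RefSeq (GRCm38.p6, the assembly of mm10) was at hand for 4 of the 10 genes, *Krt7*, *Krt18*, *Krt8* and *Epcam*. It is shown for all 4. Of these, *Krt7* and *Krt18* had the most methylated promoters among those with a value, and *Krt8* and *Epcam* had no promoter value at all. Each run of 300 bases around the start site is written 5′ to 3′ on the strand of the gene, with CpG sites in capitals. *Krt7* is at chr15:101412153-101412452 (plus strand), *Krt18* at chr15:102027966-102028265 (plus), *Krt8* at chr15:102004293-102004592 (minus) and *Epcam* at chr17:87635729-87636028 (plus).
Krt7: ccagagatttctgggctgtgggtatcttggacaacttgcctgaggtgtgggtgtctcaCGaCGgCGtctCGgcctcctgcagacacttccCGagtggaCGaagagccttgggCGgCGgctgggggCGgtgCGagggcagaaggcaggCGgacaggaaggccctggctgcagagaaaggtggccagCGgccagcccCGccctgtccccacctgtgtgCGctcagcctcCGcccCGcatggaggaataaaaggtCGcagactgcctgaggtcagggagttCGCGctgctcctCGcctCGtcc
Krt18: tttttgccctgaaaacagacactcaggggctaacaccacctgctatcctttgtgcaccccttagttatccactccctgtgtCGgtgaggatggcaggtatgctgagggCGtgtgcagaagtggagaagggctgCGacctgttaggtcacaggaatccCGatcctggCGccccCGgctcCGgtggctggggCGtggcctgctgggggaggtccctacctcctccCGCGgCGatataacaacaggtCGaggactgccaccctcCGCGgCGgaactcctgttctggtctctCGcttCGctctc
Krt8: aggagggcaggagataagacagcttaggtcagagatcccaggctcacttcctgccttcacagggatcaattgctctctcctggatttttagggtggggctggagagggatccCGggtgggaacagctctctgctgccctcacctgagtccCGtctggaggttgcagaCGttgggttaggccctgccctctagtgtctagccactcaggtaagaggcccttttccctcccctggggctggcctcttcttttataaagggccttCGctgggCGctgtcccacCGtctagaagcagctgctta
Epcam: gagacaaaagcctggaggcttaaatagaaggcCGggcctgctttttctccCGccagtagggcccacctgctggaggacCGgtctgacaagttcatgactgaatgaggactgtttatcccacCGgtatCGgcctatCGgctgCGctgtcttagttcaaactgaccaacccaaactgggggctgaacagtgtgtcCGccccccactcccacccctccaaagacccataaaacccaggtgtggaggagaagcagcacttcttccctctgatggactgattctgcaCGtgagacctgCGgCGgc

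The *Krt7* window held 21 CpG sites and *Krt18* 17, *Epcam* 11 and *Krt8* 6, against a median of 7 over 32851 promoters of this length, of which 94.6% held at least 1. RRBS libraries are commonly cut at CCGG (the MspI site), although the enzyme is not given in the sources used here. CCGG stood at 0 places in the *Krt7* window, 2 in *Krt18*, 1 in *Krt8* and 3 in *Epcam*, and 52.8% of all such windows held it. Of the 4 windows only that of *Krt18* contained cytosines listed in at least 10 libraries, 9 of them, and the 23 listed *Krt7* cytosines lay further downstream. CACCTG, an E-box that Zeb and Snai factors bind, was searched on both strands and was present once in *Krt7*, *Krt18* and *Krt8* and at 2 places in *Epcam*, compared with 20.2% of all windows that held it. AACCGGTT, a Grhl motif, was in none of the 4 and in 0.146% of all windows. AACCGGTT contains CCGG, so those searches overlap.

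The 8 promoters ranged from nearly unmethylated to strongly methylated. Means over 12 libraries were 0.0935 for *Esrp1*, 0.139 for *Krt19*, 0.149 for *Esrp2*, 0.180 for *Ovol1*, 0.2002 for *Grhl2*, 0.244 for *Cdh1*, 0.479 for *Krt18* and 0.759 for *Krt7*. From *Esrp1* to *Cdh1* each neighbour in this order differed from the next by less than the range of either over the libraries. *Krt18* stood clear of *Cdh1*, with every *Krt18* library (0.396 to 0.562) above every *Cdh1* library (0.181 to 0.321), and *Krt7* (0.584 to 0.900) stood clear of *Krt18*. The median of the 8 was 0.190 and that of all 15737 promoters 0.0393, and even the *Esrp1* promoter lay above 61.4% of them. Of the 8, 4 lay under 0.2, as did 71.6% of all promoters.

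The 10 gene bodies were more methylated, with a median of 0.597 against 0.628 over 18731 gene bodies. *Krt18* was highest at 0.850, followed by *Krt7* (0.768), *Cdh1* (0.753) and *Krt8* (0.742), then *Grhl2* (0.633), *Esrp1* (0.562), *Krt19* (0.495), *Epcam* (0.439) and *Ovol1* (0.421). The *Esrp2* body was lowest at 0.162, but it rests on 5 cytosines, from 500 to 540 bp after the start, and ran from 0 to 0.480 among libraries (limma adjusted p = 0.894 between the lines, with a sign that depended on the scale). The gap between promoter and body was widest for *Cdh1*, and smallest for *Krt7* and *Esrp2*. The listed promoter cytosines of *Krt7* were all downstream of the start site.

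**Figure D1:**
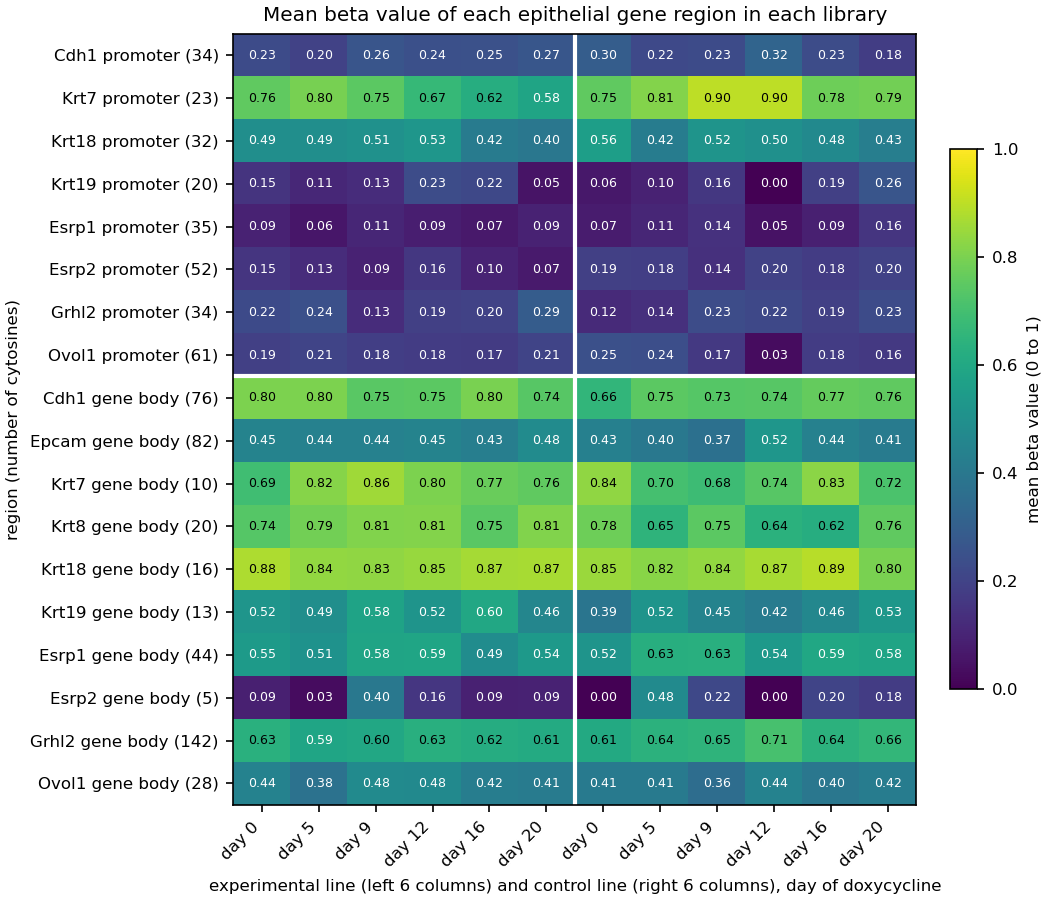
Mean beta value (colour and number, 0 to 1) of each promoter (above the white line) and gene body (below it), with the number of cytosines in parentheses. Columns are libraries, experimental days on the left and control days on the right. The promoters of *Krt7* and *Krt18* stand out from the other 6, and no row splits cleanly between the lines.

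Between the lines, none of the 8 promoters and none of the 10 gene bodies had an adjusted p-value under 0.05 (limma on M-values, two-sided, Benjamini-Hochberg over all regions tested). The M-value is the log2 ratio of the methylated to the unmethylated share, each with 0.01 added. The background was 1.93% of all promoters (1.43% higher and 0.502% lower in the experimental line) and 2.0% of all gene bodies (1.41% higher and 0.593% lower). Without adjustment 2 of the 8 promoters (*Esrp2* and *Krt7*) and 1 of the 10 gene bodies (*Krt8*) had p under 0.05, while 16.1% of all promoters and 16.6% of all gene bodies did. The experimental and control values overlapped in all of these regions, and they did not overlap at 4.38% of all promoters and 5.02% of all gene bodies. The experimental mean was the higher one at 3 of the 8 promoters and 7 of the 10 gene bodies, compared with 62.4% of all promoters and 58.0% of all gene bodies. The median M-value difference, experimental minus control, was -0.05 for the 8 promoters and 0.18 for all promoters, and 0.20 for the 10 gene bodies and 0.07 for all gene bodies.

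**Figure D2:**
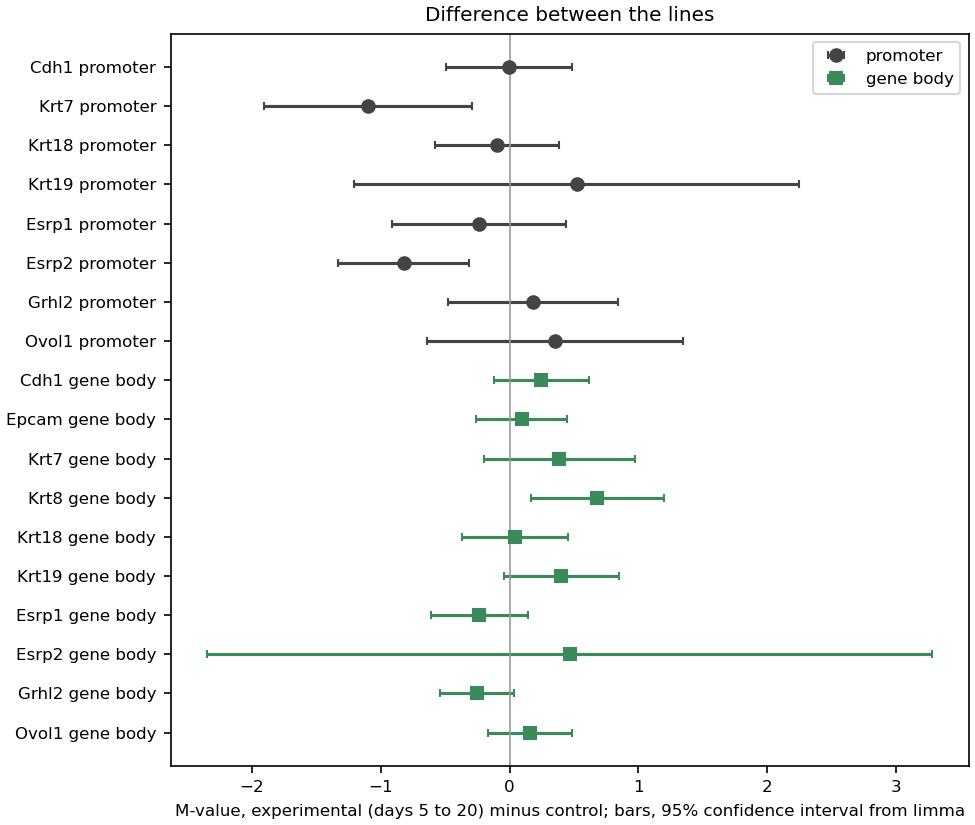
Difference in M-value between the experimental libraries of days 5 to 20 and the control libraries, with its 95% confidence interval from limma before any adjustment. The intervals of the *Krt7* promoter (-1.90 to -0.29), the *Esrp2* promoter (-1.33 to -0.31) and the *Krt8* gene body (0.16 to 1.20) lie on 1 side of 0, and the *Esrp2* gene body has the widest interval (-2.35 to 3.28).

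*Cdh1* encodes E-cadherin, the adhesion molecule of epithelial junctions. Its promoter is at chr8:106601850-106603849 on the plus strand (mm10, as all coordinates here), with 34 listed cytosines. Beta values from day 0 to day 20, in order of sampling, were 0.229, 0.197, 0.264, 0.242, 0.250 and 0.268 in the experimental line. In the control line they were 0.296, 0.222, 0.230, 0.321, 0.231 and 0.181. The groups overlapped, with means of 0.244 ± 0.0287 (SD, n = 5) and 0.247 ± 0.0518 (SD, n = 6). The 95% interval of the difference in beta, from limma, ran from -0.0587 to 0.0534 (limma adjusted p = 0.994 on M-values). Behind this mean was a sharp profile: the cytosines at -787 and -666 bp averaged between 0.857 and 0.978 in the series of either line, the 14 from -55 to 79 averaged 0.0816 over the 12 libraries, and the 15 from 154 to 336 averaged 0.288.

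The *Cdh1* gene body (to chr8:106670247, 76 cytosines) averaged 0.767 ± 0.0296 (n = 5) in the experimental and 0.734 ± 0.0390 (n = 6) in the control series. The lines differed by 0.25 ± 0.17 (SE) in M-value (limma adjusted p = 0.514). The answer depended on which cytosines were averaged. On the 46 cytosines listed in every library, the experimental line had 0.830 on day 0 and then 0.813, 0.823, 0.819, 0.818 and 0.820. The control line had 0.755, 0.768, 0.765, 0.757, 0.755 and 0.780. No experimental library came down to the highest control library, before doxycycline or after. With this choice, applied to every gene body, the difference of 0.46 ± 0.08 (SE) in M-value was past the threshold (limma adjusted p = 0.0123), as were 4.50% of 16033 gene bodies. It was the 1 gene body of these genes called with that choice, and no promoter of theirs was (2.43% of 13036 promoters were). Each of the single cytosines with the lowest p-values in the body, 32538 and 32416 bp from the start, was between 0.971 and 1 in the experimental series and between 0 and 0.84 in the control series, neither past the threshold (limma adjusted p = 0.0717 and 0.0828).

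**Figure D3:**
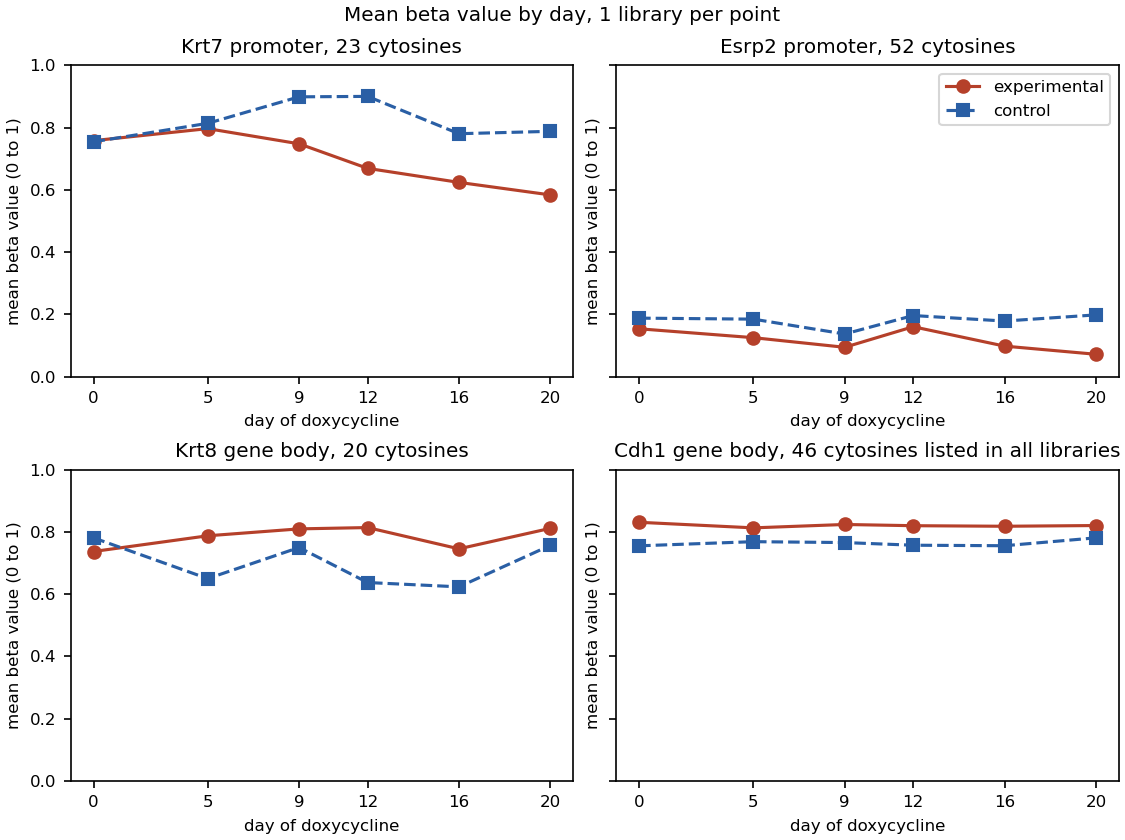
Mean beta value on each day of doxycycline in the experimental (red circles) and control (blue squares) lines, 1 library per point. The *Krt7* promoter lines, with each library on the cytosines it listed, start at 0.758 and 0.754 and end at 0.584 and 0.788. The control points of days 0 and 12 rest on 10 of the 23 cytosines. The *Cdh1* gene body, on cytosines listed in every library, is separated from day 0 (0.830 against 0.755).

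*Epcam* encodes an epithelial cell adhesion molecule (gene at chr17:87635979-87651127, plus strand). Its gene body, with 82 cytosines, had beta values from 0.428 to 0.481 in the experimental series (median 0.440) and from 0.371 to 0.524 in the control series (median 0.424). The difference in M-value was 0.10 ± 0.16 (SE, limma adjusted p = 0.809). Within the gene, the first stretches were low and the later ones high. The 13 cytosines from 586 to 694 bp averaged 0.0255, the 37 from 962 to 1304 averaged 0.215, and the 8 from 4490 to 4538 averaged 0.933. The first of these stretches is the nearest measured sequence to the unmeasured *Epcam* promoter.

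The 37-cytosine stretch of *Epcam* also held a called cytosine, described with the other single cytosines. In the experimental line the stretch had 0.253, 0.254, 0.231, 0.321, 0.222 and 0.307 on days 0 to 20. In the control line it had 0.122, 0.174, 0.135, 0.172, 0.163 and 0.229. The experimental line was above the control line on every day, day 0 included, although the lowest experimental value was under the highest control value. No test was made on this stretch because it was chosen after its values were seen. Further along, the 6 cytosines from 14493 to 14547 bp went the other way, from 0.647 to 0.747 in the experimental and from 0.786 to 0.929 in the control series. The experimental line was already lower there on day 0, at 0.782 against 0.929. Of 78 stretches in these genes, this stretch was the 1 whose groups did not overlap, beside 5.02% of all gene bodies taken whole. It too was picked after its values were seen and was not tested. All stretches given here are runs of at least 3 cytosines with neighbours at most 60 bp apart.

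*Krt7* encodes a type II keratin of simple and glandular epithelia. Its promoter window (chr15:101410903-101412902, plus strand) had 23 listed cytosines, all between 108 and 408 bp downstream of the start. Beta values in the experimental line were 0.758 on day 0, then 0.796, 0.748, 0.669, 0.624 and 0.584 on days 5 to 20. In the control line they were 0.754 on day 0, then 0.813, 0.899, 0.900, 0.780 and 0.788. On the cytosines that each library listed, only 10 of the 23 in control days 0 and 12, the lines began together. The experimental value was then under the control value on each of the 5 later days, and the gap was widest on days 12 and 20. The means were 0.684 ± 0.0875 (n = 5) and 0.822 ± 0.0625 (n = 6). The lines differed by -1.10 ± 0.37 (SE) in M-value, which did not pass the threshold (limma adjusted p = 0.163).

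The *Krt7* values do not all rest on the same cytosines. The control day 0 and day 12 libraries listed 10 of the 23, and the experimental day 9 library 18. On the 5 cytosines listed in every library, from 359 to 408 bp, the experimental line had 0.933, 0.994, 0.896, 0.671, 0.619 and 0.967 on days 0 to 20. The control line had 0.8, 0.964, 1, 1, 0.824 and 0.933 there. On these 5 the experimental line was the higher one on days 0, 5 and 20 and the lower one on days 9, 12 and 16. Neither the shared start nor the order of the later days held on them. The interaction of line and day over all 12 libraries gave a slope of -0.0760 ± 0.0468 (SE) M-value units per day for *Krt7*, experimental minus control (limma adjusted p = 1.00). The window overlaps *Gm671*, a lncRNA gene whose own promoter window holds the same 23 cytosines.

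Of the *Krt7* promoter cytosines, the one at chr15:101412635, 232 bp from the start, passed the threshold. It was at 1 in each of the 5 control libraries that listed it. In the experimental line it was at 0.556 on day 0, 0.929 on day 5, 0.250 on day 12, 0.294 on day 16 and 0.250 on day 20. The experimental day 9 and control day 0 libraries did not list it. The M-value difference was -6.86 ± 1.06 (SE, limma adjusted p = 0.0407). The next-lowest p-value in the window was at 225 bp (0.389 ± 0.263, n = 4, against 0.974 ± 0.0583, n = 5, limma adjusted p = 0.133).

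The *Krt7* gene body (10 cytosines) had 0.693 on day 0 and between 0.757 and 0.857 later in the experimental line, and 0.835 on day 0 and between 0.684 and 0.827 later in the control line. Its adjusted p-value was 0.519 (limma). The experimental mean of *Krt7* was the lower one at the promoter and the higher one in the body.

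*Krt8* encodes the main type II partner of keratin 18 in simple epithelia (chr15:101996711-102004342, minus strand). Only its gene body, with 20 cytosines, could be read. The experimental line had 0.737 on day 0, then 0.787, 0.809, 0.814, 0.745 and 0.811. The control line had 0.780 on day 0, then 0.650, 0.749, 0.637, 0.623 and 0.756. The experimental library was the higher one on all 5 days of doxycycline and the lower one on day 0, but the control libraries of days 0, 9 and 20 reached into the experimental range. With 0.793 ± 0.0289 (n = 5) against 0.699 ± 0.0700 (n = 6), the M-value difference was 0.68 ± 0.23 (SE), not past the threshold (limma adjusted p = 0.171). The *Krt8* body stayed between 0.151 and 0.303 in adjusted p-value in every alternative run except one, without control day 0, where it was 0.118.

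*Krt18* encodes the type I partner of keratin 8 and starts 23.9 kb from it on chromosome 15. Its promoter (chr15:102026716-102028715, plus strand, 32 cytosines) had 0.495 on day 0 and 0.396 to 0.526 later (median 0.494, n = 5) in the experimental line, and 0.420 to 0.562 (median 0.489) in the control line. The difference in beta had a 95% interval from -0.0891 to 0.0559 (limma adjusted p = 0.866 on M-values). Methylation dipped at the start site here too: the 3 cytosines from -1453 to -1427 averaged 0.777, the 3 from -278 to -256 averaged 0.601, the 9 from -116 to -22 averaged 0.265, and the 10 from 79 to 242 averaged 0.465. Those 9 cytosines lie inside the *Krt18* sequence shown above, and none of them was listed in the control day 12 library. The single cytosine with the lowest p-value was 213 bp downstream (0.641 ± 0.250, n = 5, against 0.970 ± 0.0653, n = 6, limma adjusted p = 0.0952). The gene body was the most methylated of the 10, at 0.851 ± 0.0169 and 0.845 ± 0.0338 (limma adjusted p = 0.937).

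*Krt19* encodes a small type I keratin of simple epithelia (chr11:100140810-100145926, minus strand). Its promoter (20 cytosines) ranged from 0.0513 to 0.233 in the experimental series and from 0.00345 to 0.264 in the control series. The lowest value, in control day 12, came from 5 of the 20 cytosines, and experimental days 0 and 20 listed 12 and 13 of them. Its M-value difference of 0.52 had an SE of 0.79, the widest of the 8 promoters (limma adjusted p = 0.782). In the gene body (13 cytosines) the experimental series had 0.530 ± 0.0585 and the control series 0.460 ± 0.0552 (limma adjusted p = 0.357). A low stretch from 574 to 614 bp (0.150 over 12 libraries) was followed by 3 cytosines from 1205 to 1221 bp at 0.869.

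**Figure D4:**
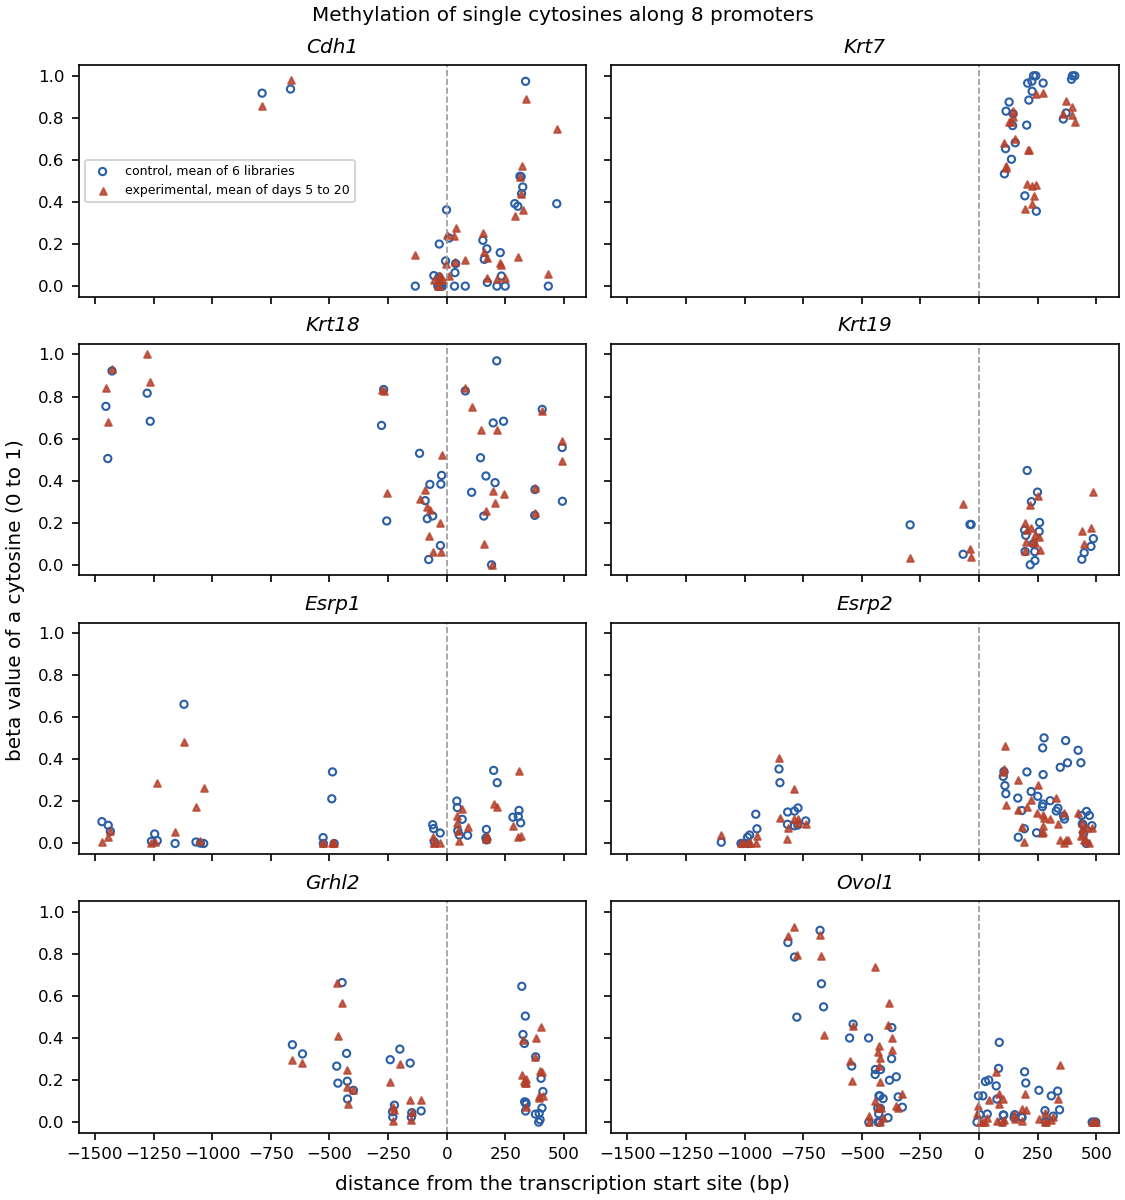
Beta value of each listed cytosine against its distance from the transcription start site (dashed line) in 8 promoters, as the mean of the control libraries (open blue circles) and of the experimental libraries of days 5 to 20 (red triangles). *Cdh1*, *Krt18* and *Ovol1* have methylated positions upstream and lower ones at the start, and *Krt7* was read only from 108 bp on. In *Esrp1*, *Esrp2* and *Krt19*, 30 of 35, 39 of 52 and 15 of 20 cytosines averaged under 0.2 over the libraries.

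*Esrp1* and *Esrp2* encode the splicing regulators. The *Esrp1* promoter (chr4:11386284-11388283, minus strand, 35 cytosines) was the least methylated of the 8, from 0.0612 to 0.106 in the experimental series and from 0.0489 to 0.156 in the control series. The highest control library was that of day 20. The adjusted p-value was 0.739 (limma). Of its cytosines, 30 of 35 averaged under 0.2, the 4 from -60 to -28 bp averaged 0.0330, and the 6 from 43 to 89 averaged 0.0953. At -1234 bp, the position with the lowest p-value, the experimental libraries of days 5 to 20 had 0.288 ± 0.206 and the control libraries 0.0134 ± 0.0216 (limma adjusted p = 0.0668). The window overlaps the lncRNA gene *Gm35631*. The *Esrp1* body (44 cytosines) had 0.541 ± 0.0450 and 0.582 ± 0.0457 (limma adjusted p = 0.546).

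The *Esrp2* promoter (chr8:106136694-106138693, minus strand, 52 cytosines) had the lowest p-value of the 18 regions. The experimental line had 0.154 on day 0, then 0.125, 0.0941, 0.160, 0.0979 and 0.0717. The control line had 0.188 on day 0, then 0.185, 0.137, 0.196, 0.178 and 0.198. The experimental library was the lower one on every day, day 0 included, but experimental day 12 was above control day 9. Means of 0.110 ± 0.0340 (n = 5) and 0.180 ± 0.0226 (n = 6) gave an M-value difference of -0.82 ± 0.23 (SE), not past the threshold (limma adjusted p = 0.105). Most of it lay downstream of the start: the 35 cytosines from 103 to 481 bp averaged 0.124 ± 0.0445 and 0.222 ± 0.0472, while the 9 from -853 to -739 averaged 0.145 ± 0.0695 and 0.150 ± 0.0865. *Esrp2* starts 466.2 kb from *Cdh1* on chromosome 8, and its window overlaps the lncRNA gene *1810019D21Rik*.

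*Grhl2* and *Ovol1* encode the transcription factors. The *Grhl2* promoter (chr15:37231321-37233320, plus strand, 34 cytosines) had 0.224 on day 0, then 0.244, 0.128, 0.190, 0.198 and 0.290 in the experimental line. In the control line it had 0.120, 0.140, 0.232, 0.217, 0.190 and 0.230. The window overlaps the lncRNA gene *Gm16136*. The order of the lines changed from day to day, and the 95% interval of the difference in beta was -0.0483 to 0.0920 (limma adjusted p = 0.803 on M-values). Its 2 cytosines with the lowest p-values, 398 and 378 bp from the start, were both higher in the experimental series (0.244 ± 0.138 against 0.0119 ± 0.0292, and 0.308 ± 0.224 against 0.0380 ± 0.0640, limma adjusted p = 0.0841 and 0.160).

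The *Grhl2* gene body, the longest of the 10 with 142 cytosines, pointed the other way. It had 0.588 to 0.630 (median 0.611) in the experimental series and 0.607 to 0.709 (median 0.646) in the control series. The experimental library was the lower one on each of the 5 days of doxycycline and the higher one on day 0 (0.633 against 0.607). An M-value difference of -0.25 ± 0.13 (SE) did not pass the threshold (limma adjusted p = 0.364). The cytosine at chr15:37321133, 88312 bp from the start, passed the threshold. Experimental values from day 0 to day 20 were 0.632, 0.513, 0.543, 0.780, 0.720 and 0.732. The control values were 1, 0.920, 0.980, 1, 1 and 0.945. No library of one line reached those of the other, with an M-value difference of -4.41 ± 0.75 (SE, limma adjusted p = 0.0366).

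The *Ovol1* promoter (chr19:5560076-5562075, minus strand, 61 cytosines) had 0.175 to 0.207 (median 0.185) in the experimental series and 0.0347 to 0.246 (median 0.171) in the control series. The value of 0.0347, in control day 12, rests on 37 of the 61 cytosines, and the unlisted ones included the methylated stretches from -815 to -777 bp and from -678 to -663 bp, which averaged 0.794 and 0.700 in the other libraries. The 28 cytosines from -9 to 343 averaged 0.0779. The adjusted p-value was 0.739 (limma). Without control day 12 the M-value difference turned from 0.35 to -0.06. The window overlaps the protein-coding gene *Ap5b1*. The *Ovol1* gene body (28 cytosines) had 0.434 ± 0.0429 and 0.407 ± 0.0291 (limma adjusted p = 0.652).

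Among the 706 cytosines of these genes that varied and could be tested singly, 3 passed the threshold (0.425%), against a background of 0.477% of 934971 cytosines (0.267% higher and 0.210% lower in the experimental line). On cytosines listed in every library, 1 of these genes' cytosines was called, that of *Grhl2*, beside 0.615% of 508351. The calls in *Krt7* and *Grhl2* are given above. The other, at chr17:87636941 in the *Epcam* body, 962 bp from the start, was at 0 in all 5 control libraries that listed it. It was at 0.268 on experimental day 0, then 0.0645, 0.697, 0.267, 0.227 and 0.125, an M-value difference of 4.99 ± 0.81 (SE, limma adjusted p = 0.0383). Without adjustment 90 of the 706 (12.7%) had p under 0.05, and 10.6% of all cytosines did. All 3 calls were lost when single libraries were left out: the *Epcam* call without experimental day 12 or 16 or without control day 0, 5, 9, 16 or 20, the *Grhl2* call without any library except control day 5 or 20, and the *Krt7* call without experimental day 12, 16 or 20 or without control day 5, 9, 12, 16 or 20. The adjusted p-values in those fits lay between 0.0552 and 0.114.

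Whether the lines parted over time was tested by the interaction of line and day in all 12 libraries. No promoter was called in this test (limma, 0 of 15737, 0.00%, with 651 at unadjusted p under 0.05), and none of the 8 promoters had p under 0.05. Of the gene bodies, in a fit added after the data were seen (0 of 18731 called, 680 at unadjusted p under 0.05), *Cdh1* was the 1 member with an unadjusted p under 0.05, with a slope of -0.0485 ± 0.0207 (SE) M-value units per day (limma adjusted p = 1.00). In that gene body the control day 0 library, at 0.657, was the lowest of the 12.

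A wider list of 49 epithelial genes (among them junction proteins, desmosomal genes, other keratins, serine proteases and their inhibitors, and epithelial transcription factors) gave 37 testable promoters and 46 testable gene bodies. Unadjusted, 9 of the 37 promoters and 10 of the 46 gene bodies had p under 0.05 (limma), beside 16.1% of all promoters and 16.6% of all gene bodies. The median M-value difference of this list was 0.26 at promoters and 0.07 in gene bodies, beside 0.18 and 0.07 for all regions.

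The 6 repressors, *Zeb1*, *Zeb2*, *Snai1*, *Snai2*, *Twist1* and *Twist2*, had promoter means from 0.00853 to 0.134, all under 0.2, with a median of 0.0425. Of all promoters, 71.6% were under 0.2, and their median was 0.0393. None of the 6 promoters or the 4 testable gene bodies was called by limma, and 1 of each had an unadjusted p under 0.05. Of 10 fibroblast genes, 7 promoters (median 0.208) and 9 gene bodies (median 0.782) could be tested, none was called, and 2 promoters and 1 gene body had an unadjusted p under 0.05. Over all regions, 1.93% of promoters and 2.0% of gene bodies were called, and 16.1% and 16.6% had an unadjusted p under 0.05. The promoter medians were 0.190 for the 8 testable promoters of the 10 epithelial genes, 0.234 for the wider epithelial list and 0.208 for the fibroblast list. In the same order, the promoters of these lists ran from 0.0935 to 0.759, from 0.00739 to 0.917 and from 0.00403 to 0.764.

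**Figure D5:**
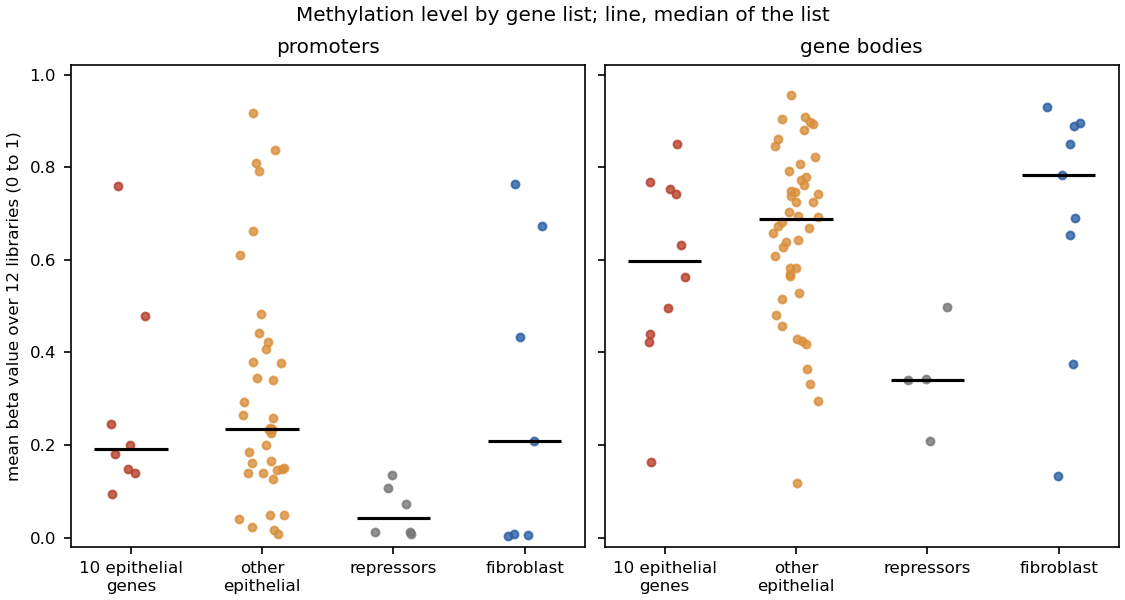
Mean beta value over 12 libraries of each promoter (left) and gene body (right), a point per gene, in the 10 epithelial genes, a wider epithelial list, repressors of epithelial genes and fibroblast genes. The bar is the median of the list. The 6 repressor promoters all lie under 0.2, as do 71.6% of all promoters, and the other 3 lists spread widely.

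The *Krt7* promoter had the widest range of the 8 over the libraries (0.316), so promoters of like pattern were sought for it among 13671 with at least 5 cytosines. *Gm671*, with the same 23 cytosines, had r = 1 by construction. Next came *Cybrd1* (Pearson r = 0.919 over 12 libraries, 41 cytosines, beta 0.161 to 0.283) and *Gm48551* (r = 0.872, 13 cytosines, beta 0.0410 to 0.116). These are the highest of many correlations over the same 12 libraries and are given as a description.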

How the data were processed

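The deposited files give, for each CpG cytosine and library, the percent of reads called methylated, without read counts. According to the paper's methods the authors aligned reads to mm10 with Bismark and extracted CpG calls. Percent values were divided by 100 to give beta values. Because the files hold no depth, cytosines could not be filtered or weighted by coverage.

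Region means over cytosines listed in at least 10 libraries (at least 3 per region) and single cytosines were tested with limma 3.58.1 in R 4.3.3 on M-values with an offset of 0.01, across all autosomal regions or cytosines. P-values were adjusted by Benjamini-Hochberg and called under 0.05. Of the 1201548 cytosines, 266577 did not vary and were not tested. Start and end positions were those of GRCm38.p6 genes, and strand came from the RefSeq promoter table or, by symbol, from an older annotation, which gave the same strand for 15486 of 15528 genes. Exon structure was not used here. The fits were checked on simulated data. Tables and plots used Python 3.11.15, numpy 2.4.6, pandas 2.3.3 and matplotlib 3.10.9.

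The genes, gene lists and motifs were chosen with earlier results of these data known. Named were all 10 genes, the 2 cytosines with the lowest p in a region, and any past the threshold (some are given by count only). Single genes of the wider epithelial list that passed the threshold are not reported here. Stretches of neighbouring cytosines and the slope fits to gene bodies were added after the data were seen. Alternatives were other offsets, the beta scale, cytosines listed in all 12 libraries, other windows, at least 5 cytosines per region, the median over cytosines, a block for day and leaving out single libraries. Values that share a day were not treated as pairs, because deviations from the line means in libraries of the same day correlated between -0.0527 and 0.0504 across promoters or gene bodies.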

Additional observations from a re-analysis of the deposited data

Results flagged for a closer look

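Over 36 series of values (8 promoters and 10 gene bodies in either line), 2 libraries stood far from the rest of their series by Dixon's criterion, which chance alone flags in about 1 of 20 series. The *Esrp2* promoter in control day 9 was at 0.137, with a gap of 0.678 of the range of the control series. The *Cdh1* gene body in control day 0 was at 0.657, with a gap of 0.715 of the range.

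At 4 gene bodies every experimental library of days 5 to 20 moved one way from its day 0 library and every control library the other way. The mean change from day 0 in the experimental line minus that in the control line was -0.129 for *Cdh1*, 0.209 for *Krt7*, 0.154 for *Krt8* and -0.0758 for *Grhl2*, in beta. These differences were not tested as such, and each rests on 1 day 0 library per line. For *Cdh1* that control library is the one named above. Such a split was seen at 4.33% of 18281 gene bodies with a value in every library. It was seen at 0 of the 8 promoters, beside 3.53% of 15000 promoters. On cytosines listed in all 12 libraries, a choice made after the data were seen, it held at *Cdh1*, where the value was -0.0222, and not at *Krt7* (0.112), *Krt8* (0.133) or *Grhl2* (-0.0866). The control day 0 library of *Cdh1* was at 0.755 on those cytosines. The share of all gene bodies with such a split was not computed for that choice.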

How the results depend on the processing

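No alternative brought any of the 8 promoters past the threshold, and 1 of the 10 gene bodies passed in 1 alternative, cytosines listed in all 12 libraries (the *Cdh1* body). The count of called cytosines in these genes, 3, became 1 with an offset of 0.05, 1 on the beta scale and 1 with cytosines listed in all 12 libraries, and lay between 0 (without experimental day 12) and 5 (without experimental day 5 or control day 12) with 1 library left out. Over all features, 304 promoters became 493 with experimental day 0 added to its group, 375 gene bodies became 627 on the beta scale, 722 with cytosines listed in all libraries and 713 with experimental day 0, and 4462 cytosines became 6925 on the beta scale. Leaving out 1 library gave 92 (experimental day 5) to 374 (control day 12) promoters, 177 (experimental day 12) to 548 (control day 12) gene bodies, and 3647 to 5818 cytosines. Slope calls were 0 in every run. With day as a replicate block, 1 promoter, 7 gene bodies and 0 cytosines were called, none of them in these genes. Days do not pair the libraries by design, and libraries correlated best with their own day only on day 5.

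The mean over the 8 promoters and libraries, 0.281, was 0.208 with the median over cytosines, and that over the 10 gene bodies, 0.582, was 0.683 with cytosines listed in all libraries. The latter holds 9 genes, since *Esrp2* had no such cytosine in its body, and the same 9 averaged 0.629 over their usual cytosines. In 22 of 401 alternative fits the sign of a difference turned, none of them past the threshold. The cause was not tested. Outside the left-out libraries these were the *Cdh1* promoter (0.0807 with cytosines in all libraries, 0.0687 with the replicate block, 0.0217 with a window of 500 bp to either side), the *Ovol1* promoter (-0.43 with cytosines in all libraries) and the *Esrp2* body (-0.0247 on the beta scale, -0.22 with the replicate block). The sign also turned over whole genes for *Krt7* (-0.60), *Krt18* (-0.12), *Esrp2* (-0.91) and *Ovol1* (-0.16). A whole gene adds to the gene body the first 500 bp after the start, which belong to the promoter window. That part holds all 23 listed *Krt7* promoter cytosines, beside 10 in the body, and the 35 of *Esrp2* from 103 to 481 bp, beside 5 in the body. With 1 library left out, the M-value difference ran from -0.111 to 0.101 at the *Cdh1* promoter, -0.178 to 0.00829 at *Krt18*, -0.0979 to 0.863 at *Krt19* and -0.0572 to 0.516 at *Ovol1*, and from -0.0517 to 0.149 in the *Krt18* body and -0.221 to 1.09 in the *Esrp2* body. Without read counts, no value could be weighted by depth.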
